A study of Mus musculus with 6 samples.

Results

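The 38 genes described here encode the proteins that bring fatty acids into heart muscle cells and break them down in mitochondria. They were taken by symbol from a list of uptake proteins, carnitine shuttle proteins, beta-oxidation enzymes, thioesterases, uncoupling proteins and lipases, and all 38 were found among the 23337 genes of the count table. Their RNA was measured in cardiomyocytes of wild-type mice that had been given an adeno-associated virus (AAV) on postnatal day 1. When the mice were 4 weeks old, cardiomyocytes were freed by Langendorff isolation, in which the heart is digested through its coronary vessels, and then sorted by fluorescence (FACS). Each virus delivered GFP (AAV-GFP, the control), XBP1S (AAV-XBP1S, the spliced, active form of the transcription factor XBP1) or ATF6N (AAV-ATF6N, the nuclear fragment of the transcription factor ATF6), with 2 libraries per group. All groups were thus wild-type, virus-injected and sorted, and the promoter that drove each transgene is not given in the sources used here. XBP1 and ATF6 act in the unfolded protein response, and each is compared here with the control virus.

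Beta-oxidation supplies most of the ATP of the adult heart. Fatty acids cross the cell membrane with the help of CD36 and fatty acid transport proteins, are held by binding proteins, activated to acyl-CoA and carried into the mitochondrion as acylcarnitines. There an acyl-CoA dehydrogenase, a hydratase, a hydroxyacyl dehydrogenase and a thiolase shorten the chain in turn, and electron transfer flavoprotein passes the electrons of the opening step on to the respiratory chain. Many of these genes are known targets of the nuclear receptor PPARα, and the program rises after birth as the heart moves from glucose to fat.

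The libraries held 67702482 to 112049342 counts each, and levels are given as counts per 1000000 counts (CPM) of the adjusted library size. Xbp1 stood at 98.0 and 115 CPM in AAV-GFP, 160 and 166 CPM in AAV-XBP1S, and 145 and 152 CPM in AAV-ATF6N. Atf6 stood at 44.9 and 70.6 CPM in AAV-GFP, 77.0 and 111 CPM in AAV-XBP1S, and 162 and 158 CPM in AAV-ATF6N. Both genes thus lay above both controls in each treated group. The summed level of 10 cardiomyocyte markers was 107467 to 122705 CPM in AAV-GFP, 97695 to 97805 CPM in AAV-XBP1S and 130568 to 131277 CPM in AAV-ATF6N. Myh6 alone had 66565 and 65071 CPM in AAV-ATF6N, against 22991 and 41121 CPM in AAV-GFP. The median log2 fold change of the 10 markers over AAV-GFP was -0.17 in AAV-XBP1S and -0.09 in AAV-ATF6N. In AAV-ATF6N 4 of them lay below both controls and 3 above (40% and 30%, against 26.7% and 27.9% of all genes). The summed level of 10 endothelial markers was 640 to 891, 1021 to 1358 and 560 to 612 CPM in AAV-GFP, AAV-XBP1S and AAV-ATF6N. That of 8 fibroblast markers was 468 to 605, 813 to 967 and 795 to 830 CPM in the same order. Smooth muscle and pericyte markers summed to 952 to 1064, 1085 to 1182 and 1273 to 1320 CPM, macrophage and leukocyte markers to 26.1 to 36.8 CPM over all libraries, and the 6 adipocyte markers to at most 6 counts in any library. Of the erythroid markers matched, Hba-a1 and Hba-a2 had 0 counts in all libraries. How reads that match 2 genes were counted is not given, so these 0 counts are not read as absence of erythroid RNA. Alas2 had 12.2 and 12.2 CPM in AAV-GFP, 5.81 and 6.62 in AAV-XBP1S, and 4.04 and 3.22 with AAV-ATF6N. Alas2, the erythroid enzyme of heme synthesis, fell in AAV-ATF6N (log2 fold change -1.75, SE 0.25, edgeR adjusted p = 0.047) and stood at -0.97 (SE 0.24, edgeR adjusted p = 0.224) in AAV-XBP1S. The part of these other cells in the results below was not tested. In sorted but bulk samples, fewer cells of a type and less RNA per cell cannot be told apart. Whether the replicates are from different animals is not given in the labels, so p-values measure only the spread between these libraries.

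The control libraries differed from each other by gene length. AAV-GFP replicate 1, in which 0.337% of counts fell on the ribosomal precursor Rn45s against 0.0319% to 0.130% in the other libraries, had more of the short members and less of the long ones than replicate 2. All 5 members under 1000 bases (Fabp3, Fabp4, Etfb, Hsd17b10 and Acot13) were higher in replicate 1, by a median of 0.88 on the log2 scale, and 8 of 9 members over 3000 bases were lower there, with a median of -0.58. Over all genes tested the medians were 0.79 under 1000 bases and -0.32 over 3000. Across the 38 members the log2 ratio of the control libraries went with log2 length (Pearson r = -0.80, Spearman rho = -0.80, from the same pair of libraries). The same 5 short members were also higher in AAV-XBP1S replicate 1, next in Rn45s at 0.130%, than in its replicate 2. Hsd17b10 had 331 and 207 CPM there, and Acot13 518 and 362. Of the members over 3000 bases, Acsl1 (534 and 822 CPM) and Cpt1a (31.5 and 48.7) were lower in that replicate 1, while Lpl and Ucp2 were higher. For many members, values without AAV-GFP replicate 1 are given beside the results. Those fits keep AAV-XBP1S replicate 1, so they do not remove all of the difference by length.

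**Figure D1:**
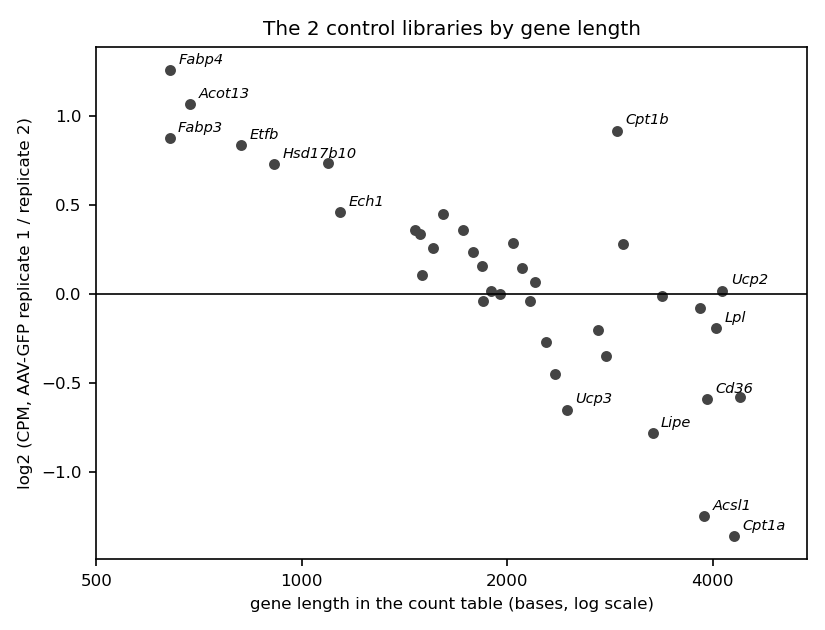
Each point is 1 of the 38 genes, placed by its length in the count table (bases, log axis) and by the log2 ratio of its CPM in AAV-GFP replicate 1 over replicate 2. The 5 shortest genes lie between 0.73 and 1.26, and Cpt1a, at -1.36, lies lowest.

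In AAV-XBP1S the fatty acid genes stood mostly below the controls. Relative to AAV-GFP, the log2 fold change was below 0 in 36 of 38 members, against 51.1% of the 14587 genes tested. Its median was -0.55 over the members and -0.01 over all genes. Every AAV-XBP1S library lay below every AAV-GFP library in 30 of the 38 (78.9%), which held for 16.8% of all genes tested, and no member lay above without overlap, against 19.1% of all genes. None passed at a Benjamini-Hochberg adjusted p of 0.05 in edgeR's quasi-likelihood test, where 0.315% of all genes did, 0.137% as lower and 0.178% as higher. At an unadjusted p under 0.05, 24 members were lower and 0 higher, against 5.21% and 6.37% of all genes. DESeq2 called 9 members lower (Slc27a1, Mlycd, Hadha, Hadh, Ech1, Acot1, Ucp2, Ucp3 and Plin5), against 1.47% of all genes, and 0 higher, against 2.1%. The median was -0.52 without AAV-GFP replicate 1 and -0.53 with an offset for gene length. With that offset edgeR called 9 members lower (Fabp3, Slc27a1, Mlycd, Etfb, Hadh, Ech1, Acot1, Ucp3 and Plin5) and 0 higher, where 1.98% of all genes passed in either direction.

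In AAV-ATF6N the pattern was narrower. Relative to AAV-GFP, the log2 fold change was below 0 in 31 of 38 members, against 51.3% of all genes. Its median was -0.35 over the members and -0.02 over all genes. The libraries lay below both controls without overlap in 27 members (71.1%), against 26.7% of all genes, and above them in 3, against 27.9%. Only Ucp2 passed edgeR's test, as lower, where 0.514% of all genes passed, 0.165% as lower and 0.35% as higher. At an unadjusted p under 0.05, 11 members were lower and 0 higher, against 6.54% and 6.92% of all genes. DESeq2 called Fabp4, Ech1, Ucp2 and Ucp3 lower, against 1.69% of all genes, and 0 higher, against 2.47%. The authors' deposited table holds these 4 as lower and 0 members as higher at an adjusted p below 0.05, against 0.937% and 1.77% of its genes. For AAV-XBP1S the authors' deposited table holds 1 member, Ucp3, as lower and 0 as higher, against 0.502% and 0.809% of its genes. All 38 members passed the filter on low counts.

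Between the treated groups, the fitted level, adjusted for library size by TMM scaling, was higher in AAV-ATF6N than in AAV-XBP1S in 32 members and lower in 6, while 50.4% of all genes were lower. The number lower was 14 without AAV-XBP1S replicate 2, 10 without AAV-ATF6N replicate 2 and 3 without AAV-XBP1S replicate 1. The median log2 difference was 0.18 over the members and -0.01 over all genes. In 22 of them (57.9%) both AAV-ATF6N libraries lay above both AAV-XBP1S libraries, against 30.1% of all genes, and in 2, Fabp4 and Ucp2, below, against 26.8%. None passed edgeR's test in this comparison, where 0.226% of all genes did, 0.171% as higher and 0.0548% as lower. At an unadjusted p under 0.05, 4 members were higher (Slc27a1, Lpl, Cpt2 and Hadha) and 2 lower, against 5.69% and 7.55% of all genes, and DESeq2 called Slc27a1 higher (2.2% of all genes) and Fabp4 lower (3.55%). The median log2 difference of the members was 0.11 with AAV-XBP1S replicate 2 left out. It was 0.28 with AAV-GFP replicate 1 and AAV-XBP1S replicate 1, the pair richest in Rn45s, left out.

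**Figure D2:**
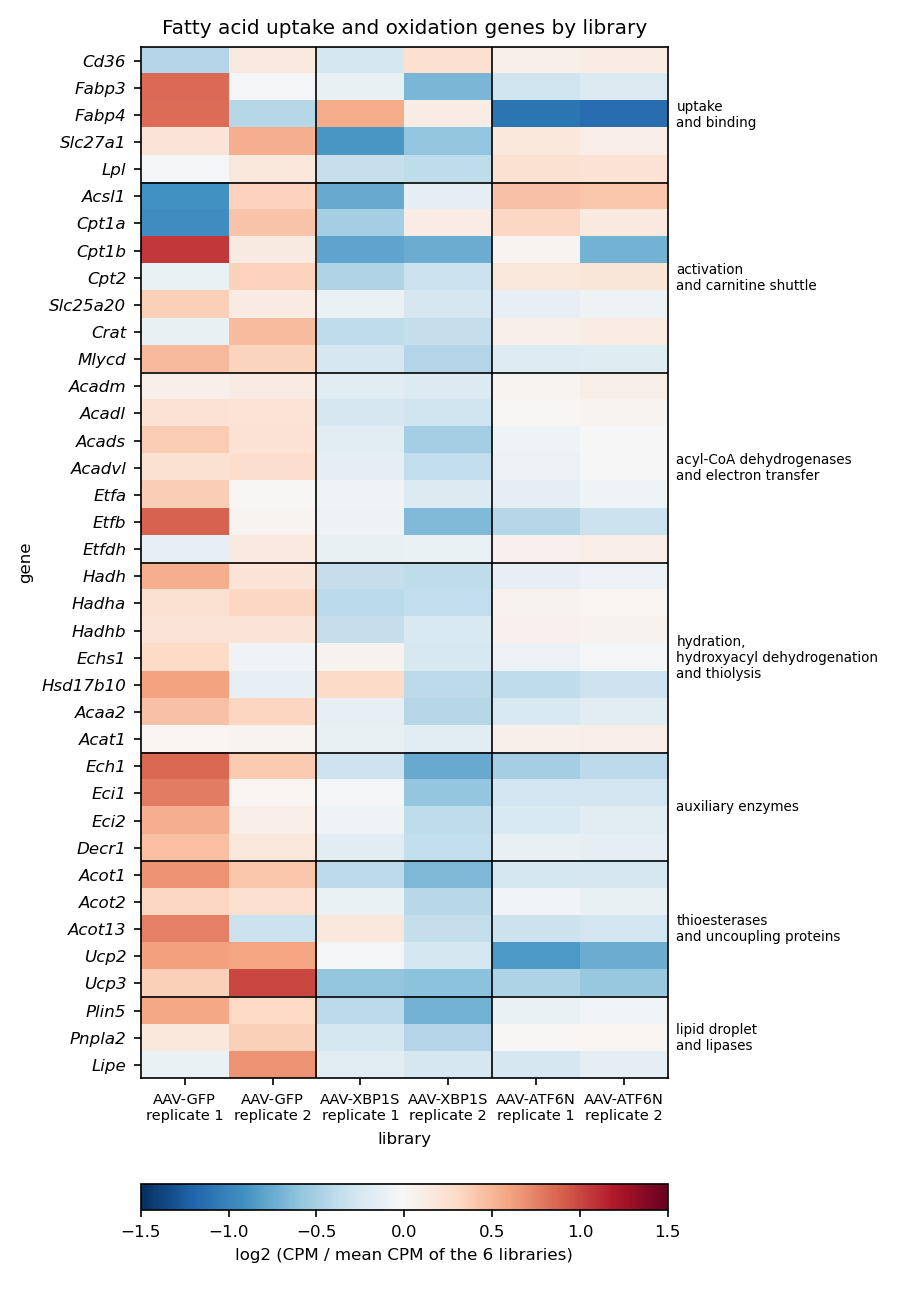
Rows are the 38 genes in groups of like role and columns the 6 libraries; color gives the log2 of a gene's CPM over its mean in the 6 libraries. Most rows are red in both AAV-GFP columns and blue in both AAV-XBP1S columns. Others, among them Cd36, Acsl1 and Cpt1a (all over 3000 bases), are blue in AAV-GFP replicate 1 and red in replicate 2. Cpt2 and Etfdh (2350 and 2281 bases) are so more faintly.

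As a share of all reads, the 38 genes took 3.51% and 3.49% of the counts in AAV-GFP. The share was 2.99% and 2.81% in AAV-XBP1S, against 2.92% and 2.98% with AAV-ATF6N, so the control libraries were the highest of the 6. Per kilobase of gene length, the most abundant member in AAV-GFP was the heart fatty acid binding protein gene Fabp3 at 6115 ± 2559 CPM per kb (SD, n = 2). It was followed by Ech1 (2797 ± 630), Etfb (2506 ± 998), Acaa2 (1780 ± 98.4) and Acadvl (1335 ± 23.4 CPM per kb). The spread of Ech1 overlapped that of Etfb, and the spread of Etfb that of Acaa2. At the low end stood Acot2 (13.7 ± 0.501), Lipe (11.7 ± 4.36), Cpt1a (9.76 ± 6.06) and Acot1 (9.01 ± 1.14 CPM per kb).

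Uptake and binding genes (5 members) held the widest contrasts of AAV-ATF6N over AAV-XBP1S, Fabp4 at -1.47 (SE 0.41, edgeR adjusted p = 0.187) and Slc27a1 at 0.85. Acsl1, of another role group, stood close to the latter at 0.84 (SE 0.42, edgeR adjusted p = 0.454). Slc27a1 (chromosome 8, 71568927 to 71586708 on mm10), which encodes the fatty acid transport protein FATP1, had 241 and 306 CPM in AAV-GFP, 115 and 140 CPM in AAV-XBP1S, and 234 and 226 CPM with AAV-ATF6N. The AAV-XBP1S libraries stood apart below the other 4. Its log2 fold change was -1.10 (SE 0.22, edgeR adjusted p = 0.133) in AAV-XBP1S and -0.25 (SE 0.21, edgeR adjusted p = 0.539) in AAV-ATF6N, and the direct difference was 0.85 (SE 0.21, edgeR adjusted p = 0.158). It passed in AAV-XBP1S with the length offset (-1.13, edgeR adjusted p = 0.0125). Lpl (chromosome 8, 68880555 to 68906932), the lipase that frees fatty acids from circulating lipoproteins, had 4389 and 5023 CPM in AAV-GFP, 3524 and 3450 in AAV-XBP1S, and 5250 and 5211 with AAV-ATF6N. AAV-XBP1S lay below and AAV-ATF6N above both controls. The log2 fold changes were -0.43 (SE 0.17, edgeR adjusted p = 0.414) and 0.15 (SE 0.17, edgeR adjusted p = 0.638), and the latter was -0.12 with the length offset.

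Fabp3 had 5072 and 2756 CPM in AAV-GFP, 2606 and 1752 in AAV-XBP1S, and 2294 and 2421 with AAV-ATF6N. The 4 treated libraries lay below both controls, and the controls lay far apart. The log2 fold changes were -0.84 (SE 0.33, edgeR adjusted p = 0.409) and -0.73 (SE 0.33), and without AAV-GFP replicate 1 they were -0.34 and -0.23. With the length offset Fabp3 passed as lower in AAV-XBP1S than in AAV-GFP and as higher in AAV-ATF6N than in AAV-XBP1S. It did not pass in AAV-ATF6N over AAV-GFP with that offset. Fabp4 (chromosome 3, 10204343 to 10208576), a binding protein best known from fat and capillary endothelium, had 723 and 302 CPM in AAV-GFP, 593 and 438 in AAV-XBP1S, and 189 and 183 with AAV-ATF6N. Both AAV-ATF6N libraries were the lowest of the 6, while AAV-XBP1S lay between the controls, at a log2 fold change of 0.01 that was 0.77 without AAV-GFP replicate 1 and -0.47 without replicate 2. The log2 fold change in AAV-ATF6N was -1.46 (SE 0.41, edgeR adjusted p = 0.253), and -0.70 without AAV-GFP replicate 1. Endothelial markers stood lowest in the same libraries, at a median of -0.49 on the log2 scale, 7 of the 10 markers lying below both controls without overlap (26.7% of all genes did), and their part in the Fabp4 values was not tested. Of the 6 adipocyte markers, only Lep had counts in an AAV-ATF6N library (6 in replicate 1). Cd36, the main fatty acid translocase, had 964 and 1453 CPM in AAV-GFP, 1093 and 1551 in AAV-XBP1S, and 1400 and 1412 with AAV-ATF6N. Both treated groups overlapped the controls. The AAV-XBP1S log2 fold change was 0.13 (SE 0.27) and turned to -0.14 without AAV-GFP replicate 1.

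**Figure D3:**
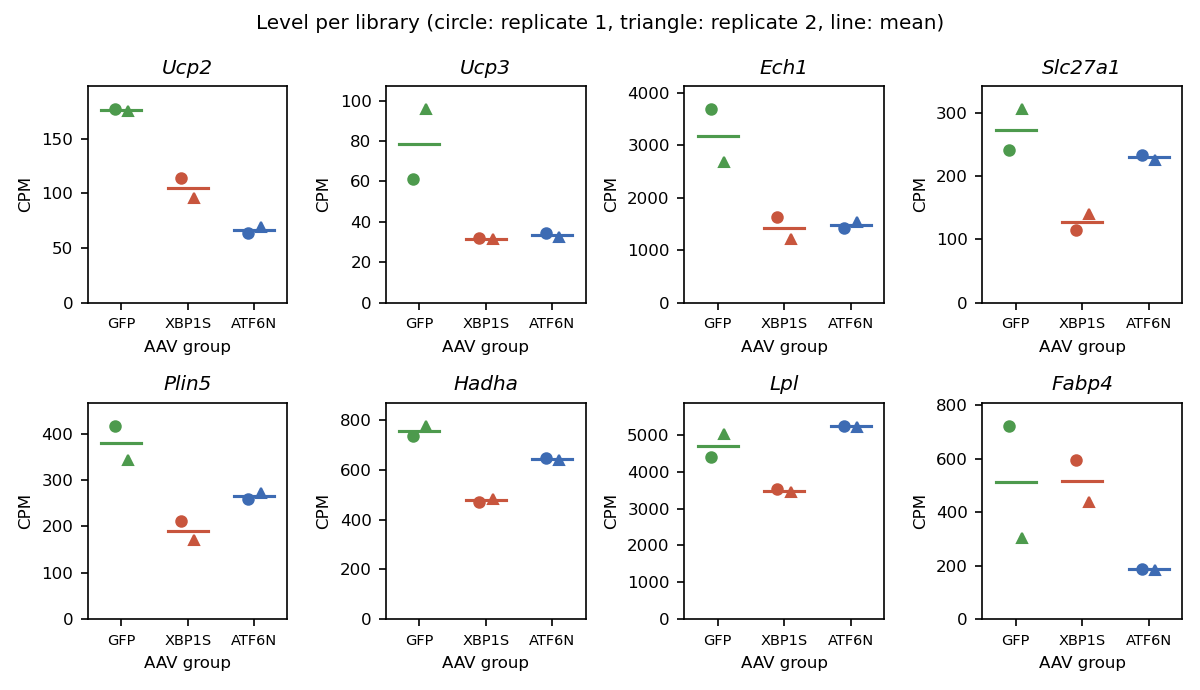
CPM of 8 genes in each library (circle, replicate 1; triangle, replicate 2) with the mean of each group as a line; axes start at 0. Ucp2 is lowest in AAV-ATF6N, Slc27a1 and Lpl are lowest in AAV-XBP1S, and Ucp3 and Ech1 are low in both treated groups.

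Of the genes for activation and the carnitine shuttle (7 members), all had a log2 fold change below 0 in AAV-XBP1S and 4 in AAV-ATF6N, with medians of -0.52 and -0.11. Mlycd, malonyl-CoA decarboxylase, which removes the inhibitor of carnitine palmitoyltransferase 1, had 293 and 264 CPM in AAV-GFP, 176 and 154 in AAV-XBP1S, and 183 and 185 with AAV-ATF6N. Each treated library lay below both controls, with log2 fold changes of -0.75 (SE 0.19, edgeR adjusted p = 0.232) and -0.60 (SE 0.19, edgeR adjusted p = 0.297). Cpt2, the inner membrane carnitine palmitoyltransferase, had 331 and 453 CPM in AAV-GFP, 261 and 285 in AAV-XBP1S, and 401 and 403 with AAV-ATF6N. Only AAV-XBP1S lay below the controls, with a direct difference of 0.56 between the treated groups (SE 0.22, edgeR adjusted p = 0.334). Crat, carnitine acetyltransferase, had a like order: 755 and 1131 CPM in AAV-GFP, 629 and 636 in AAV-XBP1S, and 869 and 881 with AAV-ATF6N. Slc25a20, the carnitine-acylcarnitine carrier, had 309 and 262 CPM in AAV-GFP against 225 and 203 in AAV-XBP1S and 221 and 229 with AAV-ATF6N.

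Acsl1, the main cardiac acyl-CoA synthetase, and Cpt1a, the liver form of carnitine palmitoyltransferase 1, could not be placed. Acsl1 had 482 and 1145 CPM in the controls, against 534 and 822 CPM in AAV-XBP1S and 1225 and 1199 CPM with AAV-ATF6N. Its log2 fold change in AAV-ATF6N was 0.57 (SE 0.41), but 0.08 without AAV-GFP replicate 1 and 1.34 without replicate 2. In AAV-XBP1S it was -0.26 (SE 0.41) and turned to 0.52 without AAV-GFP replicate 2. Cpt1a had 23.6 and 60.4 CPM in AAV-GFP, 31.5 and 48.7 in AAV-XBP1S, and 55.8 and 49.8 with AAV-ATF6N, and the groups overlapped in both comparisons with the control. In AAV-XBP1S its log2 fold change of -0.07 was -0.60 without AAV-GFP replicate 1 and 0.80 without replicate 2. Cpt1b, the muscle form of the same enzyme, was counted at only 31 to 159 reads per library. In the count table, 2744 bases or 94.8% of its exon sequence are also assigned, on the same strand, to BC090627, a row with 0 counts in every library. How reads over 2 genes were counted is not given in the sources used here, so the Cpt1b row is no measure of its level, and its log2 fold changes (-1.43, SE 0.58, and -0.95, SE 0.57) are given for completeness. Without it the median of the other 37 members was -0.55 for AAV-XBP1S and -0.34 for AAV-ATF6N.

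All 7 acyl-CoA dehydrogenase and electron transfer genes had a log2 fold change below 0 in AAV-XBP1S (median -0.49) and 6 in AAV-ATF6N (median -0.28). Acadl, the long-chain acyl-CoA dehydrogenase, had closely matched replicates, with 1791 and 1763 CPM in AAV-GFP, 1286 and 1246 in AAV-XBP1S, and 1549 and 1578 with AAV-ATF6N. The 3 groups did not overlap, with AAV-ATF6N between the others. The log2 fold changes were -0.49 (SE 0.17, edgeR adjusted p = 0.36) and -0.18 (SE 0.17). Acadvl, the very-long-chain enzyme, had 2845 and 2916 CPM in AAV-GFP, 2207 and 1885 in AAV-XBP1S, and 2294 and 2439 with AAV-ATF6N. Acads, the short-chain enzyme, had 286 and 255 CPM, 195 and 155, and 210 and 220 in the same order. Acadm, the medium-chain enzyme, had 1691 and 1739 CPM in AAV-GFP, 1421 and 1391 in AAV-XBP1S, and 1644 and 1706 with AAV-ATF6N, and only AAV-ATF6N overlapped the controls. In all 4 dehydrogenases AAV-XBP1S lay below AAV-ATF6N without overlap, as it did in 30.1% of all genes. The direct differences ran from 0.21 to 0.30 (edgeR adjusted p from 0.497 to 0.678).

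Electron transfer flavoprotein is built from the products of Etfa and Etfb and is reoxidized by that of Etfdh. Etfb, of 815 bases, had 2618 and 1467 CPM in AAV-GFP, 1349 and 902 in AAV-XBP1S, and 1060 and 1136 with AAV-ATF6N. The treated libraries lay below both controls, with log2 fold changes of -0.86 (SE 0.33) and -0.90 (SE 0.33, edgeR adjusted p = 0.342), which were -0.38 and -0.42 without AAV-GFP replicate 1. With the length offset Etfb passed as lower in AAV-XBP1S and did not pass in AAV-ATF6N over AAV-GFP. Etfa had 1598 and 1249 CPM, 1192 and 1070, and 1116 and 1183, also without overlap with the controls. Etfdh had 962 and 1158 CPM in AAV-GFP, and its treated libraries (965 to 1116 CPM) lay within that range.

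The 7 genes for hydration, the hydroxyacyl dehydrogenase step and thiolysis likewise all had a log2 fold change below 0 in AAV-XBP1S (median -0.48), and 6 in AAV-ATF6N (median -0.23). Hadha and Hadhb encode the subunits of the mitochondrial trifunctional protein and lie head to head on chromosome 5 (30118304 to 30154980 and 30155322 to 30184583). Hadha had 735 and 777 CPM in AAV-GFP, 471 and 483 in AAV-XBP1S, and 646 and 640 with AAV-ATF6N. Hadhb had 460 and 461 CPM, 314 and 345, and 423 and 418 in the same order. Both genes showed 3 groups without overlap, lowest in AAV-XBP1S. Their log2 fold changes in AAV-XBP1S were -0.67 (SE 0.17, edgeR adjusted p = 0.243) and -0.48 (SE 0.18), and in AAV-ATF6N -0.23 and -0.13. Hadh, the short-chain hydroxyacyl-CoA dehydrogenase, had 1121 and 875 CPM in AAV-GFP, 599 and 588 in AAV-XBP1S, and 703 and 722 with AAV-ATF6N (log2 fold changes -0.75, SE 0.20, and -0.49, SE 0.20).

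Acaa2, the mitochondrial 3-ketoacyl-CoA thiolase, had 2774 and 2565 CPM in AAV-GFP, 1878 and 1532 in AAV-XBP1S, and 1749 and 1821 with AAV-ATF6N. All 4 treated libraries lay well below both controls, at log2 fold changes of -0.65 (SE 0.19, edgeR adjusted p = 0.287) and -0.58 (SE 0.19, edgeR adjusted p = 0.309). Acat1, the acetoacetyl-CoA thiolase, lay closer together, with 995 and 1005 CPM in AAV-GFP, 900 and 875 in AAV-XBP1S, and 1031 and 1047 with AAV-ATF6N. Echs1, the short-chain enoyl-CoA hydratase, had 725 and 572 CPM in AAV-GFP, and its treated libraries spanned 500 to 615 CPM. Hsd17b10, of 911 bases, had 411 and 248 CPM in AAV-GFP, 331 and 207 in AAV-XBP1S, and 208 and 219 with AAV-ATF6N. Without AAV-GFP replicate 1 its log2 fold change in AAV-XBP1S turned from -0.29 to 0.11, in a fit that keeps AAV-XBP1S replicate 1.

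The auxiliary enzymes Ech1, Eci1, Eci2 and Decr1 move or reduce double bonds so that unsaturated fatty acids can pass through the cycle. All 4 lay below both controls without overlap in each treated group, against 16.8% of all genes in AAV-XBP1S and 26.7% in AAV-ATF6N. Their median log2 fold changes were -0.65 and -0.64. Ech1 (chromosome 7, 28825338 to 28832239), the dienoyl-CoA isomerase, had 3690 and 2675 CPM in AAV-GFP, 1634 and 1206 in AAV-XBP1S, and 1427 and 1545 with AAV-ATF6N. Its means were 2.24-fold and 2.14-fold lower than in AAV-GFP. The log2 fold changes were -1.16 (SE 0.25, edgeR adjusted p = 0.167) and -1.10 (SE 0.25, edgeR adjusted p = 0.166). Ech1 passed in both comparisons with the length offset, at -1.0 (edgeR adjusted p = 0.00819) and -0.68 (edgeR adjusted p = 0.0238), and the authors' deposited table gives it -1.09 with an adjusted p of 0.0192 in AAV-ATF6N. Eci1 had 962 and 577 CPM, 554 and 378, and 462 and 462, Eci2 315 and 230 CPM, 205 and 165, and 183 and 193, and Decr1 379 and 313 CPM, 249 and 215, and 257 and 251, in AAV-GFP, AAV-XBP1S and AAV-ATF6N. Without AAV-GFP replicate 1 the log2 fold change in AAV-XBP1S was -0.31 for Eci1 and Eci2 and -0.44 for Decr1, against -0.72, -0.56 and -0.58 with it, and in AAV-ATF6N it was -0.32, -0.29 and -0.30, against -0.74, -0.54 and -0.45.

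The uncoupling proteins are carriers of the inner mitochondrial membrane, and their genes are neighbours on chromosome 7 (Ucp3 at 100472991 to 100486432 and Ucp2 at 100493345 to 100502173). Ucp2 had 177 and 175 CPM in AAV-GFP, 114 and 96.1 in AAV-XBP1S, and 63.8 and 69.0 with AAV-ATF6N. The 3 groups did not overlap, and the control libraries, apart in many other members, were almost equal. Ucp2 fell 2.65-fold in AAV-ATF6N (log2 fold change -1.40, SE 0.20, edgeR adjusted p = 0.0462), the single member to pass. The edgeR adjusted p was 0.0510 with robust estimation, 0.137 with only AAV-GFP and AAV-ATF6N in the fit, 0.138 and 0.136 without either AAV-XBP1S library, and 0.715 and 0.634 without either AAV-ATF6N library, while the log2 fold change stayed between -1.35 and -1.46 in these fits. The authors' deposited table gives -1.40 with an adjusted p of 0.000237. In AAV-XBP1S the log2 fold change was -0.74 (SE 0.19, edgeR adjusted p = 0.24), and the direct difference was -0.66 (SE 0.19, edgeR adjusted p = 0.205).

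Ucp3, the muscle form, had 61.0 and 95.7 CPM in AAV-GFP, 31.8 and 31.3 in AAV-XBP1S, and 34.6 and 32.3 with AAV-ATF6N. The 4 treated libraries lay close together and below both controls. The log2 fold changes were -1.31 (SE 0.26, edgeR adjusted p = 0.135) and -1.23 (SE 0.26, edgeR adjusted p = 0.14), and with AAV-GFP replicate 1 left out it passed in AAV-XBP1S (-1.60, edgeR adjusted p = 0.0275) and in AAV-ATF6N (-1.52, edgeR adjusted p = 0.032). The authors' deposited table gives -1.32 (adjusted p = 0.0399) and -1.22 (adjusted p = 0.0144). Of the acyl-CoA thioesterases, which split acyl-CoA back to the free acid, Acot1 had 15.3 and 12.8 CPM in AAV-GFP, 7.31 and 5.98 in AAV-XBP1S, and 8.0 and 8.01 with AAV-ATF6N (log2 fold changes -1.08, SE 0.23, and -0.81, SE 0.23). Acot2 had 30.9 and 29.3 CPM, 23.2 and 18.7, and 24.1 and 23.1. Acot1 and Acot2 are close neighbours of near-identical sequence on chromosome 12, so reads may be split between them and their single values are uncertain. Acot13, of 686 bases, had 785 and 373 CPM in AAV-GFP and 518 and 362 in AAV-XBP1S. Its log2 fold change in AAV-XBP1S turned from -0.40 to 0.24 without AAV-GFP replicate 1, in a fit that keeps AAV-XBP1S replicate 1.

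**Figure D4:**
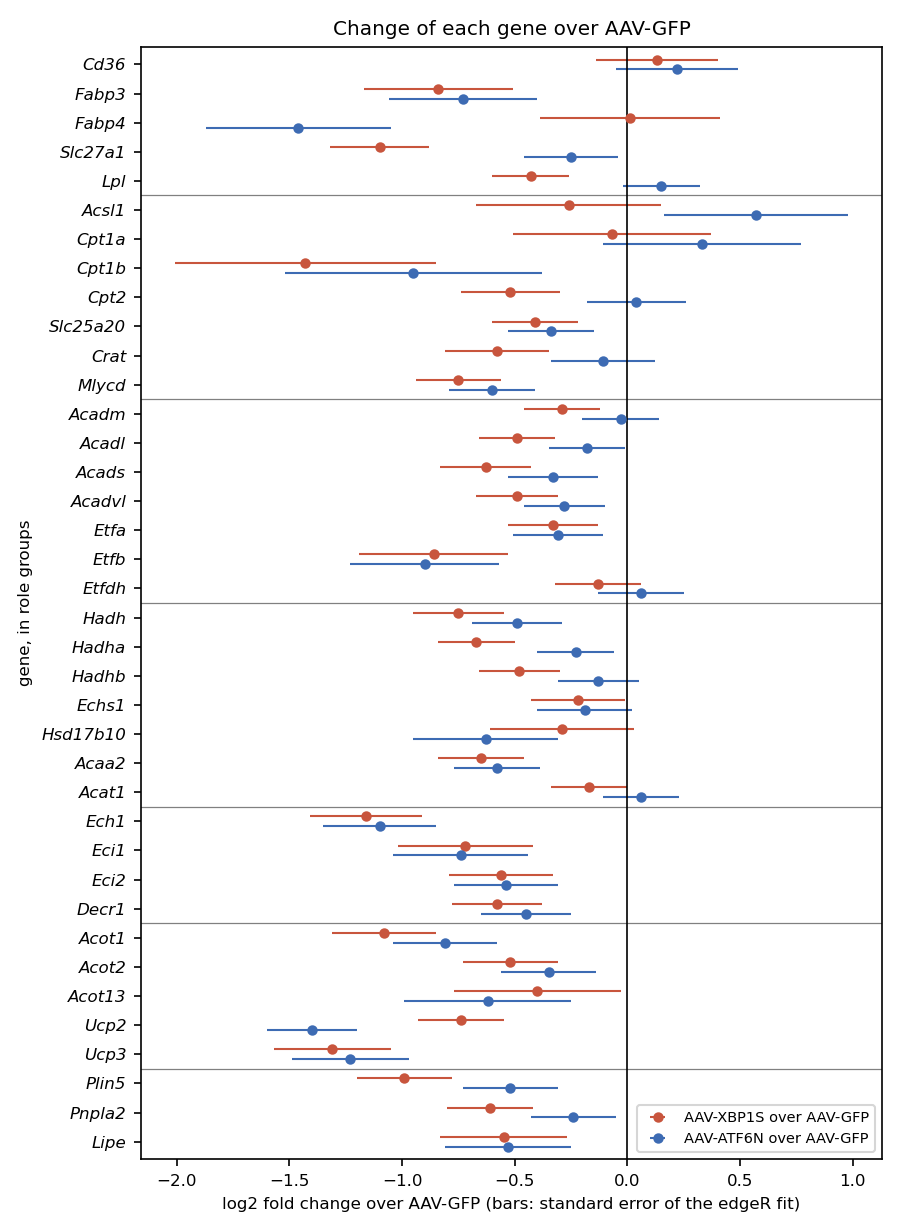
Points give the log2 fold change of each of the 38 genes over AAV-GFP in AAV-XBP1S (red) and AAV-ATF6N (blue), with bars of 1 standard error from the edgeR fit. In AAV-XBP1S 36 points lie below 0 and in AAV-ATF6N 31, and the widest gaps between red and blue are at Fabp4 (0.01 and -1.46), Slc27a1 (-1.10 and -0.25) and Acsl1 (-0.26 and 0.57).

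Lipid droplets hold the triglyceride store of the cell. Plin5 (chromosome 17, 56111601 to 56117548), the droplet coat protein of oxidative tissue, had 417 and 342 CPM in AAV-GFP, 212 and 170 in AAV-XBP1S, and 259 and 271 with AAV-ATF6N. The 3 groups did not overlap, lowest in AAV-XBP1S, where its mean was 1.98-fold lower. The log2 fold changes were -0.99 (SE 0.21, edgeR adjusted p = 0.169) and -0.52 (SE 0.21, edgeR adjusted p = 0.366), and the direct difference was 0.47 (SE 0.21, edgeR adjusted p = 0.406). It passed in AAV-XBP1S with the length offset (-0.93, edgeR adjusted p = 0.0255). Pnpla2, adipose triglyceride lipase, had the same order, with 478 and 548 CPM in AAV-GFP, 356 and 316 in AAV-XBP1S, and 432 and 438 with AAV-ATF6N (log2 fold changes -0.61, SE 0.19, and -0.24, SE 0.19). Lipe, hormone-sensitive lipase, had 28.2 and 48.3 CPM in AAV-GFP, 26.9 and 25.4 in AAV-XBP1S, and 25.4 and 27.6 with AAV-ATF6N. It rested on AAV-GFP replicate 2: without it the AAV-XBP1S log2 fold change was -0.08 in place of -0.55. Of its exon bases 13.9% overlap 4732471J01Rik on the opposite strand, and the library kits do not mark strand.

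The sequences before the starts of Ucp2, Ucp3, Ech1 and Slc27a1 are shown because Ucp2 passed the test and the other 3 had the smallest p-values in AAV-XBP1S. They are the 250 bases before the RefSeq start (for Slc27a1, of its several starts, the one nearest the start in the count table), 5′ to 3′ on the gene's strand (plus strand for all), from GRCm38.p6, the assembly of mm10. Capitals mark AGGTCA, the core bound by nuclear receptors, and CCACG, the core of the endoplasmic reticulum stress element, on either strand.
Ucp2, chr7:100493108-100493357: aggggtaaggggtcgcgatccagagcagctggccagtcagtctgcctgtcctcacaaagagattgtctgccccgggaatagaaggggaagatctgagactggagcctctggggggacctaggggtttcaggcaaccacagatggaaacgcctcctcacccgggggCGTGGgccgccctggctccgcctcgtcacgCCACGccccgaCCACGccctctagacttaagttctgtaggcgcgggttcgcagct
Ucp3, chr7:100472741-100472990: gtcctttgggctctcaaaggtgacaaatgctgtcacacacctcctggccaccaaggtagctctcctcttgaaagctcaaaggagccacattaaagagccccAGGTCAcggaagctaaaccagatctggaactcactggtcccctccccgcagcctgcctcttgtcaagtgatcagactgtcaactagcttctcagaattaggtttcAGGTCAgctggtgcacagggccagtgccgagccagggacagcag
Ech1, chr7:28825088-28825337: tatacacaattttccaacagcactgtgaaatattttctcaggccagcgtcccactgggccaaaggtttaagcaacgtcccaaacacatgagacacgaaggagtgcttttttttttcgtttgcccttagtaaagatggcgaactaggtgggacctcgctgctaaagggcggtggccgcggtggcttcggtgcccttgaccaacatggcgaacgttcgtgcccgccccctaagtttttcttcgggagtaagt
Slc27a1, chr8:71568621-71568870: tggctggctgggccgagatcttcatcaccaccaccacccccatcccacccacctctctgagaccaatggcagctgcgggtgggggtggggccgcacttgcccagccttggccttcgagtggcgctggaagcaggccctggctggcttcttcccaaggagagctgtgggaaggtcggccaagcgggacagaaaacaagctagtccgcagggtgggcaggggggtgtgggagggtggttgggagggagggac
Ucp2 holds 3 CCACG cores and Ucp3 2 AGGTCA cores, while the printed windows of Ech1 and Slc27a1 hold neither. For Slc27a1, CCACG was found only before its other RefSeq starts. RefSeq windows were found for 30 of the 38 members (35 windows, as some genes have several starts). AGGTCA was in 20.0% of these windows and CCACG in 40.0%, against 14.0% and 28.3% of all 32851 windows of that length. Searched on both strands, the longer motifs were in none of the 35: AGGTCA followed after 1 free base by another AGGTCA (the PPAR direct repeat, 0.0335% of all windows), TCAAGGTCA (an estrogen-related receptor site, 0.387%), TGACGTGG (a site of XBP1 or ATF6, 0.563%) and CCAAT followed after 9 free bases by CCACG (the endoplasmic reticulum stress element, 0.113%). The CCAAT box alone, bound by NF-Y, was in 42.9% against 33.8%. The shorter cores overlap the longer motifs, and AGGTCA and CCACG were added after the longer motifs had been searched.

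Other genes of fatty acid metabolism (76 genes in 5 lists) were set beside the members. In AAV-XBP1S 1 of the 76 fell and 0 rose by edgeR's test, with a median of -0.23. Without overlap, 22 (28.9%) lay below and 4 (5.26%) above both controls, against 16.8% and 19.1% of all genes. DESeq2 called 6 lower and 1 higher (Bdh1), against 1.47% and 2.1% of all genes. The gene that fell by edgeR's test was Klf15, a transcription factor that drives lipid use in heart and muscle, with 162 and 191 CPM in AAV-GFP, 57.1 and 52.1 in AAV-XBP1S, and 129 and 136 with AAV-ATF6N. It fell 3.24-fold (log2 fold change -1.70, SE 0.20, edgeR adjusted p = 0.0322), a call lost without any 1 of the AAV-XBP1S or AAV-ATF6N libraries (edgeR adjusted p from 0.163 to 0.45) or with only AAV-GFP and AAV-XBP1S in the fit (0.161). In AAV-ATF6N 0 of the 76 passed, and the median was 0.00. At an unadjusted p under 0.05, 7 were lower and 2 higher, against 6.54% and 6.92% of all genes. There 26 (34.2%) lay below and 20 (26.3%) above the controls, near the 26.7% and 27.9% of all genes. DESeq2 called 2 lower, among them Fabp5, and 1 higher, Bdh1, against 1.69% and 2.47% of all genes. Between the treated groups 0 passed edgeR's test, with a median of 0.17. Unadjusted, 5 were lower and 10 higher at a p under 0.05, against 7.55% and 5.69% of all genes. DESeq2 called 7 higher and 3 lower (Fabp5, with Gpihbp1 and Acsl5, both named after their values were seen), against 2.2% and 3.55% of all genes.

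By list, the 20 regulators had a median log2 fold change of -0.23 in AAV-XBP1S, with 9 below both controls and 0 above, and 0.01 in AAV-ATF6N, with 8 below and 6 above. That is 45% and 0% against 16.8% and 19.1% of all genes, and 40% and 30% against 26.7% and 27.9%. Ppara, the receptor PPARα itself, had 86.1 and 75.7 CPM in AAV-GFP, 45.2 and 34.0 in AAV-XBP1S, and 84.5 and 81.4 with AAV-ATF6N. Ppargc1a, its coactivator PGC-1α, had 185 and 230 CPM, 123 and 150, and 322 and 327. Over AAV-GFP, Ppara had a log2 fold change of -1.03 (SE 0.22, edgeR adjusted p = 0.169) in AAV-XBP1S, where DESeq2 called it lower. Ppargc1a had -0.61 (SE 0.21, edgeR adjusted p = 0.359) in AAV-XBP1S and 0.65 (SE 0.21, edgeR adjusted p = 0.307) in AAV-ATF6N. None of these passed edgeR's test. The direct differences between the treated groups were 1.07 (SE 0.22, edgeR adjusted p = 0.107) for Ppara, 1.25 (SE 0.21, edgeR adjusted p = 0.0689) for Ppargc1a and 1.28 (SE 0.20, edgeR adjusted p = 0.0601) for Klf15. Rxrb, a partner receptor, had 74.8 and 69.3 CPM in AAV-GFP and 41.0 to 48.4 CPM in the 4 treated libraries.

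The 18 peroxisomal oxidation genes, which shorten very long chains outside the mitochondrion, had medians of -0.04 in AAV-XBP1S and 0.25 in AAV-ATF6N, with 2 below and 1 above the controls in the former (11.1% and 5.56%, against 16.8% and 19.1% of all genes) and 2 below and 7 above in the latter (11.1% and 38.9%, against 26.7% and 27.9%). The 15 lipid droplet and triglyceride genes had medians of -0.34 and -0.19. Among them Plin4, a droplet coat protein, had 51.7 and 74.4 CPM in AAV-GFP, 24.2 and 23.1 in AAV-XBP1S, and 70.2 and 66.0 with AAV-ATF6N, with a log2 fold change of -1.42 (SE 0.24, edgeR adjusted p = 0.0920) in AAV-XBP1S and a direct difference of 1.53 (SE 0.24, edgeR adjusted p = 0.0630). The 15 other uptake, binding and activation genes had medians of -0.28 and -0.13. Fabp5 had 60.3 and 33.0 CPM in AAV-GFP, 65.9 and 46.6 in AAV-XBP1S, and 19.7 and 19.5 with AAV-ATF6N, whose libraries were the lowest, as for Fabp4. The 8 genes of ketone body and propionyl-CoA use had medians of -0.28 and -0.04. Bdh1, which interconverts ketone bodies, had 3.03 and 2.44 CPM in AAV-GFP and 5.74 to 6.68 CPM in the treated libraries.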

How the data were processed

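Polyadenylated RNA of 6 libraries was made into cDNA with SMART Seq v4 and Nextera XT kits, per the labels' protocols. The deposited counts are whole reads per gene. STAR, featureCounts and mm10 are named in the submitters' processing notes, but no version, annotation release or strand option. The authors' deposited tables of each comparison with AAV-GFP hold, per the file headers, mean normalized signal, log2 fold changes, standard errors and Wald statistics as scores, and p-values; the notes name DESeq2 and DESeq.

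All 6 columns of counts were used and 0 left out. Genes were kept by filterByExpr (count minimum 10), which left 14587 of 23337. edgeR 4.0.16 (R 4.3.3) with TMM scaling and quasi-likelihood tests was fitted to the 6 libraries by group (3 residual degrees of freedom), two-sided, with p-values adjusted by Benjamini-Hochberg over the 14587 genes and a threshold of 0.05. The fit was tested on simulated counts. Standard errors are the log2 fold change divided by the square root of F. An exact permutation test of 2 against 2 cannot go below 33.3%, so none was run. The length offset removes a lowess trend (span 0.3) of log2 CPM (prior count 2) on gene length in each library. DESeq2 1.42.0 was an alternative.

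The members, lists and alternatives were chosen with earlier results of these data known. Per-library values were to be given, in each role group, for members past the threshold, the 3 of smallest p in AAV-XBP1S and the 1 of smallest p in the other comparisons. Of the 5 lists of other genes, those past the threshold and the 4 of smallest p per comparison are named, except 1 gene that is not reported here. Adgre1, Hbb-bs and Hbb-bt were not matched. AAV-ATF6N and AAV-XBP1S share the AAV-GFP libraries as control, so their values are given side by side.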

Additional observations from a re-analysis of the deposited data

Results flagged for a closer look

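In 2 of the 38 genes every AAV-XBP1S library lay below both control libraries and every AAV-ATF6N library above them (5.26%, against 1.95% of all 14587 genes tested). Lpl had a log2 fold change of -0.43 in AAV-XBP1S and 0.15 in AAV-ATF6N, and Acat1 -0.17 and 0.06. The direct difference between the treated groups was 0.59 (SE 0.17, edgeR adjusted p = 0.212) for Lpl and 0.23 (SE 0.17, edgeR adjusted p = 0.629) for Acat1, so neither passed. With the length offset the AAV-ATF6N values turned to -0.12 and -0.13.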

How the results depend on the processing

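The median log2 fold change of the members kept its sign under all 14 other settings in each comparison. Every setting scaled the libraries by TMM or by DESeq2 size factors, and none left the scaling out. Leaving out 1 library at a time it ran from -0.63 to -0.48 in AAV-XBP1S over AAV-GFP, from -0.43 to -0.29 in AAV-ATF6N over AAV-GFP and from 0.11 to 0.24 in AAV-ATF6N over AAV-XBP1S, where it was 0.28 after leaving out the pair of libraries richest in Rn45s, 1 control and 1 AAV-XBP1S library, a setting used for values only. Fits without 1 library leave 1 group with a single library, assumed to vary like the other groups.

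Counts of calls depended on the setting, and the cause was not tested. In the order AAV-XBP1S over AAV-GFP, AAV-ATF6N over AAV-GFP and AAV-ATF6N over AAV-XBP1S, the edgeR counts of members lower were 0, 1 and 0 and of members higher 0, 0 and 0, among 46, 75 and 33 genes called. DESeq2 gave 9, 4 and 1 lower and 0, 0 and 1 higher, among 520, 595 and 839 genes. Without a filter on low counts there were 3, 4 and 1 lower, among 233, 348 and 458 genes. The length offset gave 9, 3 and 1 lower and 0, 0 and 2 higher, among 289, 224 and 606 genes. With only the 2 groups compared there were 0, 0 and 1 lower and 0, 0 and 1 higher, among 13, 8 and 666 genes. Robust estimation gave 0 lower in AAV-ATF6N over AAV-GFP. Leaving out 1 library at a time, members lower ran from 0 to 1, 0 to 12 and 0 to 1, members higher from 0 to 0, 0 to 2 and 0 to 1, and genes called from 2 to 242, 4 to 3052 and 1 to 669. The 12 lower (with Acsl1 and Cpt1a higher) came without AAV-GFP replicate 2, which leaves AAV-GFP replicate 1 as the sole control.

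Whether the replicate numbers pair the libraries is not given in the labels. Deviations of replicate 1 correlated at 0.38 between AAV-GFP and AAV-XBP1S, and at -0.04 and -0.05 for the pairs with AAV-ATF6N, so not every pair deviated together. With a replicate block, 1, 1 and 1 members were lower (Ech1, Ucp2 and Fabp4), among 165, 237 and 356 genes called.

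Every member but Cpt1b had at least 489 counts in each library, and 2 libraries per group limit the precision.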
